A study of Homo sapiens with 6 samples.

Results

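The Notch pathway was followed through 10 of its genes in HK-2 cells that overexpressed PPM1K and in their controls. They were the receptors NOTCH1, NOTCH2 and NOTCH3, the ligands JAG1, JAG2 and DLL1, and the target genes HES1, HES4, HEY1 and NRARP. The genes were chosen by name as receptors, ligands and targets, with earlier results of these data known. All 10 were found by symbol among the 31369 genes of the count table. Of these 10 genes, 9 passed the filter on low counts and entered the test over 15878 genes, and DLL1 did not pass.

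HK-2 is an established human cell line derived from the proximal tubule of the kidney. The study compared 3 control samples (NC, genotype entered as WT) with 3 samples that overexpressed PPM1K (OE), the phosphatase that activates the branched-chain keto acid dehydrogenase complex of mitochondria. Stranded mRNA libraries were sequenced, and the study asked which genes changed with PPM1K. The PPM1K plasmid was delivered by lipid transfection, and what the NC cells received is not given in the sources used here. Every sample was labelled as day 10, and every sample carried the treatment entry chronic kidney disease, so these 2 entries did not separate the groups. The titles of the samples, however, speak of a control hairpin and of a hairpin against PPM1K, and the number in the cell line entry goes up from sample to sample while the cell type entry is HK-2 in all 6. PPM1K itself followed the genotype entries, with 37, 19 and 53 counts in the NC samples and 3294, 3531 and 2919 in the OE samples (log2 fold change 6.39, SE 0.13, edgeR adjusted p = 1.1e-18). Those counts cannot separate transcripts of the plasmid from transcripts of the cell's own gene. The study speaks of biological replicates, but no source says that the samples came from separate cultures, so the p-values measure only the spread between these samples.

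Notch receptors are transmembrane proteins that are activated by Jagged or Delta-like ligands on neighbouring cells. Ligand binding opens the receptor to ADAM proteases and then to gamma-secretase, which releases an intracellular part that enters the nucleus. There it joins the DNA-binding protein RBPJ and a Mastermind coactivator and switches on genes such as HES1 and HEY1, which encode transcriptional repressors, and NRARP, which feeds back on the pathway. In the kidney the pathway is known for patterning the proximal part of the nephron during development, and it is active again in injured tubules.

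Of the 9 tested genes, 3 were called lower in OE, NOTCH3, JAG1 and HES1, which is 1 receptor, 1 ligand and 1 target. A call required an adjusted p under 0.05 in edgeR's quasi-likelihood test and a fold above 2 or below 0.5. Over all tested genes, 3.79% were called lower. Because the genes were chosen with earlier results of these data known, an excess over the shares of all genes was not tested. None of the 9 was called higher, by edgeR or by DESeq2, where 1.73% of all tested genes were called higher by edgeR. NOTCH2 and HEY1 had an unadjusted p under 0.05 in that direction, with folds below 2. Without the fold threshold, 5 of the 9 genes were lower (NOTCH1, NOTCH3, JAG1, HES1 and HES4) and 2 were higher (NOTCH2 and HEY1). The corresponding shares of all tested genes were 23.7% lower and 24.9% higher. JAG2 and NRARP did not pass. The median log2 fold change was -0.26 over the 9 genes and -0.0032 over all tested genes. In CPM, the counts per 1000000 counts of the TMM-normalized library, the 3 OE samples did not overlap the 3 NC samples for 7 of the 9 genes, and 55.3% of all tested genes did not overlap.

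**Figure D1:**
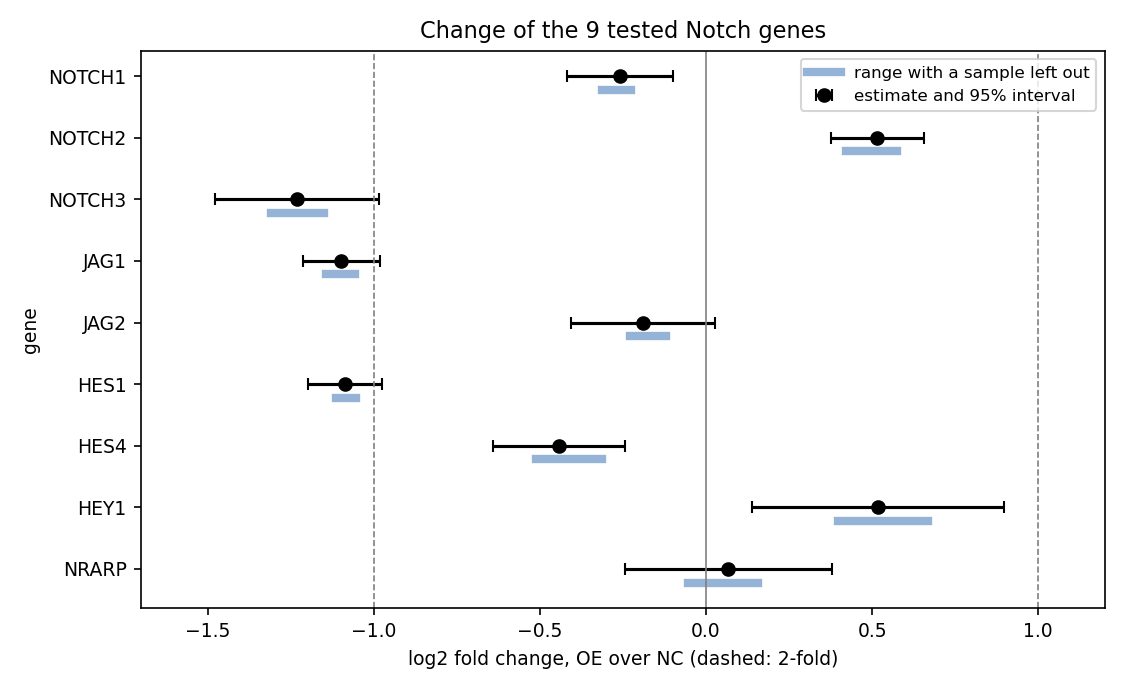
Log2 fold change of OE over NC (x axis) for the 9 tested genes (y axis), with points for the edgeR estimates, black bars for 95% intervals and blue bars for the range of estimates when each sample was left out in turn. The 3 genes beyond the dashed 2-fold line on the left are NOTCH3 (-1.23), JAG1 (-1.10) and HES1 (-1.09), NOTCH2 and HEY1 lie right of 0, and the blue bar of NRARP crosses 0.

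The 3 receptors moved in different directions. NOTCH3 (ENSG00000074181.9, chr19:15159038-15200995, minus strand), the receptor best known from vascular smooth muscle, had a CPM of 11.1, 8.92 and 10.2 in the NC samples and of 4.66, 4.30 and 3.94 in the OE samples. Every OE sample was far below every NC sample. The level fell by 57.4% (log2 fold change -1.23, SE 0.12, 95% interval -1.48 to -0.98, edgeR adjusted p = 3.0e-08). The counts were 314 to 388 per NC sample and 143 to 172 per OE sample. NOTCH1 (ENSG00000148400.13, chr9:136494433-136546048, minus strand), a widely expressed receptor, had 23.9, 24.1 and 21.2 CPM in NC and 19.0, 19.0 and 19.8 CPM in OE. The groups lay close together but did not overlap, and NOTCH1 fell by 16.4% (log2 fold change -0.26, SE 0.08, edgeR adjusted p = 0.0080). The difference no longer passed with limma on FPKM, which gave adjusted p values of 0.067 and 0.071 with pseudocounts of 1 and 0.1.

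NOTCH2 (ENSG00000134250.20), the receptor most closely tied to proximal nephron formation, went the other way. In GENCODE v44, which holds the version ENSG00000134250.21, the gene lies at chr1:119911553-120100779 on the minus strand. The CPM of NOTCH2 was 54.3, 53.2 and 49.5 in the NC samples and 71.4, 68.9 and 84.1 in the OE samples. All OE samples were above all NC samples, and OE sample 3 was the highest. NOTCH2 rose 1.43-fold (log2 fold change 0.51, SE 0.07, 95% interval 0.37 to 0.65, edgeR adjusted p = 2.1e-06). Near-identical partial copies of NOTCH2, the NOTCH2NL genes, lie on the same chromosome, and only uniquely aligned reads were counted, so reads from the shared stretch may be lost or split. NOTCH2NLC had 23 to 31 counts and NOTCH2NLR 24 to 40 counts per sample, with log2 fold changes of 0.08 and 0.05 that did not pass (edgeR adjusted p = 0.84 and 0.89). NOTCH2NLA had at most 2 counts in any sample and was not tested. The counts of the copies were a small part of those of NOTCH2, which had 1781 to 3055 per sample.

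**Figure D2:**
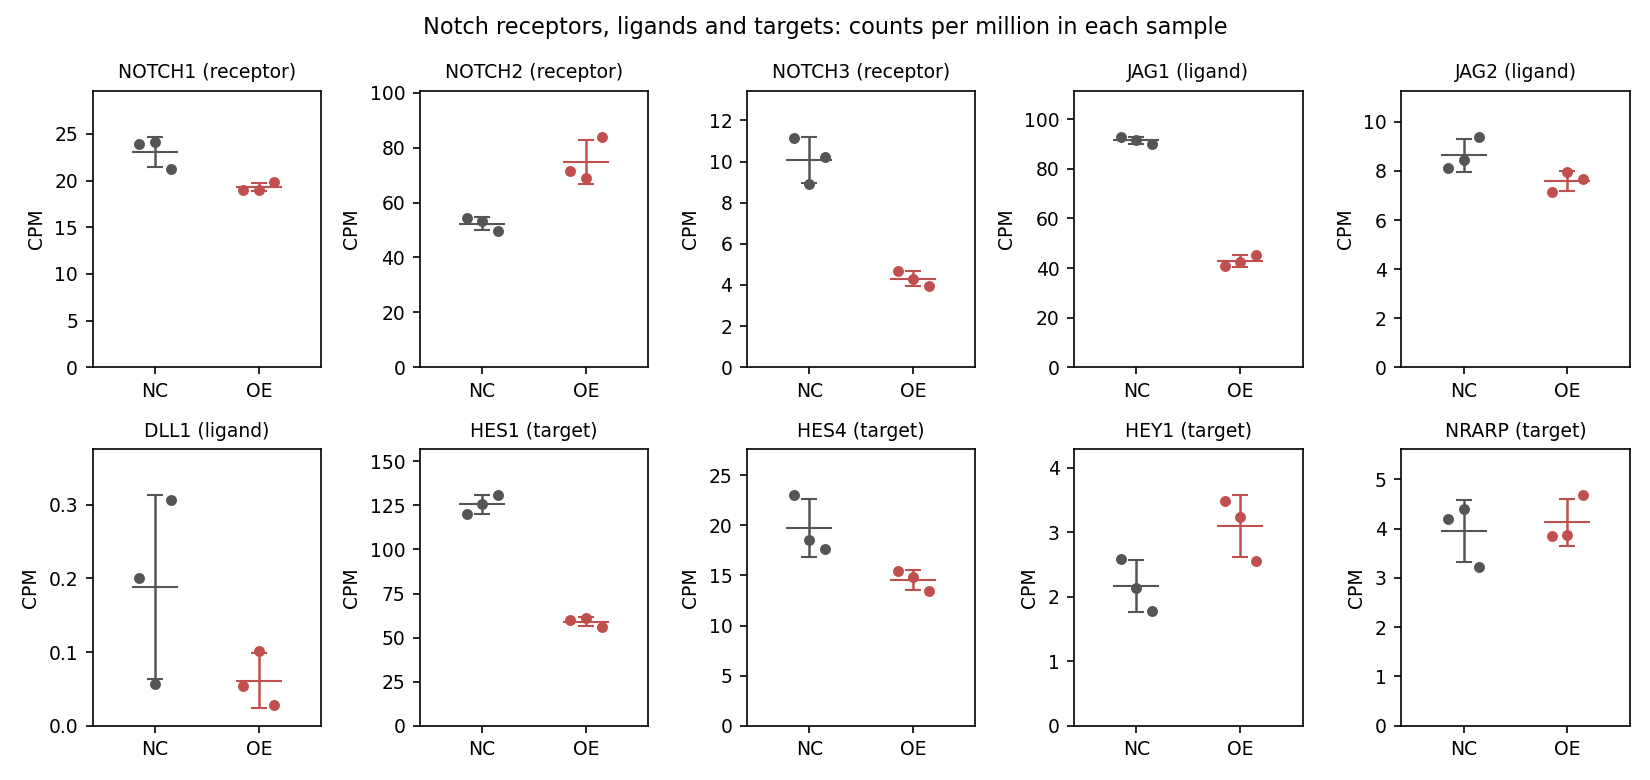
CPM (y axis, from 0, a separate scale in each panel) of the 10 genes in the 3 NC samples (grey) and the 3 OE samples (red), where points are samples, horizontal lines are means and bars are SD. The samples of the 2 groups are apart for NOTCH1, NOTCH2, NOTCH3, JAG1, JAG2, HES1 and HES4 and overlap for DLL1, HEY1 and NRARP.

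Among the ligands, JAG1 (ENSG00000101384.12, chr20:10637684-10673999, minus strand), the Jagged ligand of the developing and injured tubule, was the one of the 2 tested ligands that passed. It had 92.8, 91.8 and 89.9 CPM in the NC samples and 40.7, 42.3 and 45.3 CPM in the OE samples. The NC samples agreed closely, and no OE sample came near them. JAG1 fell by 53.3% (log2 fold change -1.10, SE 0.06, 95% interval -1.21 to -0.98, edgeR adjusted p = 1.2e-12). It was the 82nd smallest p of the 15878 genes tested.

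JAG2 (ENSG00000184916.9, chr14:105140982-105168824, minus strand), the second Jagged ligand, had 8.10, 8.44 and 9.40 CPM in NC and 7.15, 7.94 and 7.65 CPM in OE. The samples of the groups did not overlap, but by a narrow gap, and the difference did not pass (log2 fold change -0.19, SE 0.10, 95% interval -0.41 to 0.03, edgeR adjusted p = 0.14). DLL1 (ENSG00000198719.9, chr6:170282206-170306565, minus strand), a Delta-like ligand, had 7, 2 and 11 counts in NC and 2, 4 and 1 in OE. These counts overlapped and were too low for the filter. Without the filter the log2 fold change was -1.56 in edgeR (adjusted p = 0.23), and in DESeq2 it was -1.61 (adjusted p = 0.26), so a difference was not detectable at this depth. DLL1 also overlaps FAM120B on the opposite strand, and whether the authors counted by strand is not given in the sources used here. NOTCH1, NOTCH2, JAG1 and NRARP overlap an annotated gene on the opposite strand too, while HES1, HES4 and HEY1 overlap no other gene.

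The 4 targets did not move together. HES1 (ENSG00000114315.4, chr3:194136148-194138732, plus strand), the repressor most often read as an output of the pathway, had 120.3, 125.6 and 130.9 CPM in the NC samples. It had 60.1, 61.1 and 56.1 CPM in the OE samples. The 2 groups were far apart, with little spread in either. HES1 fell by 52.9% (log2 fold change -1.09, SE 0.05, 95% interval -1.20 to -0.97, edgeR adjusted p = 9.7e-13), the 79th smallest p of all genes tested, on 2039 to 4705 counts per sample.

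HES4 (ENSG00000188290.11, chr1:998962-1000172, minus strand), a related repressor that the mouse lacks, had 23.0, 18.6 and 17.7 CPM in NC and 15.4, 14.8 and 13.4 CPM in OE. NC sample 1 was the highest, and the groups did not overlap. HES4 fell by 26.4% (log2 fold change -0.44, SE 0.10, edgeR adjusted p = 6.4e-04), a smaller change than that of HES1. The 95% interval of HES4 (-0.64 to -0.24) and that of HES1 lay apart.

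HEY1 (ENSG00000164683.18), a repressor of the same helix-loop-helix family, had 2.59, 2.13 and 1.78 CPM in NC and 3.49, 3.24 and 2.56 CPM in OE. The lowest OE sample lay just below the highest NC sample, so the groups overlapped. HEY1 was higher in OE (log2 fold change 0.52, SE 0.18, 95% interval 0.14 to 0.90, edgeR adjusted p = 0.023), on 64 to 129 counts per sample. The difference did not pass with DESeq2 (adjusted p = 0.069). It also no longer passed in edgeR without NC sample 2 (0.054), NC sample 3 (0.11), OE sample 1 (0.096) or OE sample 2 (0.064), all adjusted p values.

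NRARP (ENSG00000198435.4, chr9:137299631-137302271, minus strand), the feedback regulator, had 4.20, 4.40 and 3.23 CPM in NC and 3.85, 3.87 and 4.68 CPM in OE. The groups overlapped, and NC sample 3 was the lowest and OE sample 3 the highest of the 6. The difference did not pass (log2 fold change 0.07, SE 0.15, 95% interval -0.24 to 0.38, edgeR adjusted p = 0.74). The estimate was -0.05 without NC sample 3 and -0.03 without OE sample 3, so it had no stable sign.

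For NOTCH3, JAG1 and HES1 the upper ends of the 95% intervals (-0.98, -0.98 and -0.97) reached above -1, the log2 of a fold of 0.5. When edgeR tested whether the change was beyond 2-fold, the adjusted p values were 0.46 for NOTCH3, 0.59 for JAG1 and 0.80 for HES1. The 3 genes were therefore lower in OE in every fit without that stricter null, but a change greater than 2-fold was not shown.

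RBPJ, the DNA-binding partner of the Notch intracellular part, is known to bind the letters GTGGGAA, and the promoters of the targets were searched for them because HES1, HES4 and NRARP moved differently. The windows were the 250 bases before the RefSeq start of each gene (GRCh38.p14), read on both strands, and TGGGAA, which lies within GTGGGAA, was searched as the shorter core. RefSeq promoters were at hand for 8 of the 10 genes, not for DLL1 and HEY1. HES1 (150 bases, chr3:194135998-194136147, plus strand), NRARP (150 bases, chr9:137302272-137302421, minus strand) and HES4 (30 bases around its match, chr1:1000156-1000185, minus strand) read as follows, 5' to 3', with the matches in capitals.
HES1: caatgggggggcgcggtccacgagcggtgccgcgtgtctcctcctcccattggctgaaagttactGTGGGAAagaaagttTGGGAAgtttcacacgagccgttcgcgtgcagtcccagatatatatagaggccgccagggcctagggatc
HES4: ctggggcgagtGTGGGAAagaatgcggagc
NRARP: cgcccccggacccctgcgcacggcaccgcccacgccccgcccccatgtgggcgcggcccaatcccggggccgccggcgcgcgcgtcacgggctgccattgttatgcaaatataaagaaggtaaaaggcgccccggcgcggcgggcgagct

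The HES1 promoter held GTGGGAA at positions -85 to -79 from the RefSeq start and a second TGGGAA at -70 to -65, both on the strand of the gene. HES4 held GTGGGAA at -77 to -71, and around it HES1 and HES4 share a run of 12 letters, tgtgggaaagaa. The start of HES4 in GENCODE lies 75 bases upstream of the RefSeq start, so the HES4 match spans the GENCODE start. NRARP held neither, and nor did NOTCH1, NOTCH2, NOTCH3, JAG1 or JAG2 in their windows, which says only that these letters are not there. Of 35116 promoters of the same length, 5.43% held GTGGGAA, 20.8% held TGGGAA and 2.90% held TGGGAA at least 2 times. A match is a description of the letters and not a measured binding site.

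Compared per length, in FPKM as the authors deposited them, the targets HES1 and HES4 were the most abundant of the 10 genes. HES1 was at 56.2 ± 2.22 FPKM in NC and 26.8 ± 0.985 in OE, and HES4 at 16.3 ± 2.52 and 12.1 ± 0.698 (mean ± SD, n = 3). JAG1 followed with 9.07 ± 0.212 FPKM in NC and 4.30 ± 0.292 in OE, and NOTCH2 with 2.42 ± 0.125 and 3.51 ± 0.423. These 4 genes kept this order in both groups, although in OE the lowest JAG1 sample (4.03) was almost level with the highest NOTCH2 sample (4.0).

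Below them, NOTCH1 was at 1.70 ± 0.114 FPKM in NC and 1.44 ± 0.0529 in OE, NRARP at 1.38 ± 0.215 and 1.46 ± 0.188, and JAG2 at 1.25 ± 0.0987 and 1.11 ± 0.0681. NOTCH3 was at 0.987 ± 0.121 FPKM in NC and 0.430 ± 0.0300 in OE, HEY1 at 0.363 ± 0.0709 and 0.527 ± 0.0777, and DLL1 at 0.0433 ± 0.0306 and 0.0133 ± 0.00577. In NC, NRARP and JAG2 could not be ordered, since their samples overlapped, and all other neighbours in the order were apart. In OE, NRARP overlapped NOTCH1, and HEY1 overlapped NOTCH3, which had been well above it in NC. For the 7 genes whose groups did not overlap, the exact 2-sided permutation test of FPKM gave p = 0.1 each, the smallest value that 3 against 3 samples allow. The p was 0.2 for HEY1, 0.4 for DLL1 and 0.6 for NRARP.

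The gene lengths behind the deposited FPKM set part of the order. For 8 of the 9 genes whose implied length could be computed it was 6.82% to 7.13% above the union of exons in GENCODE v44. For NOTCH2 it was 27.5% above (21342 against 16744 bases). The implied length was computed with the summed gene counts as the library size, so it also carries any difference from the authors' mapped fragments. An excess common to all genes does not change their order. The deposited rows of NOTCH2 and HEY1 carry other gene versions than GENCODE v44. The length implied by the HEY1 values was 5875 bases, against 2197 bases in its MANE Select transcript, the single reference transcript chosen by RefSeq and GENCODE. With the MANE Select length, a choice made after seeing the data, HES1, HES4, JAG1 and NOTCH2 were still the first 4 and DLL1 the last. In NC, HEY1 then overlapped NOTCH3 (0.807 to 1.18 against 1.04 to 1.29 counts per kilobase and 1000000 counts). In OE, HEY1 (1.17 to 1.56) was above NOTCH3 (0.457 to 0.527) in every sample, and NOTCH2 overlapped JAG1 (5.99 to 7.42 against 6.73 to 7.68).

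**Figure D3:**
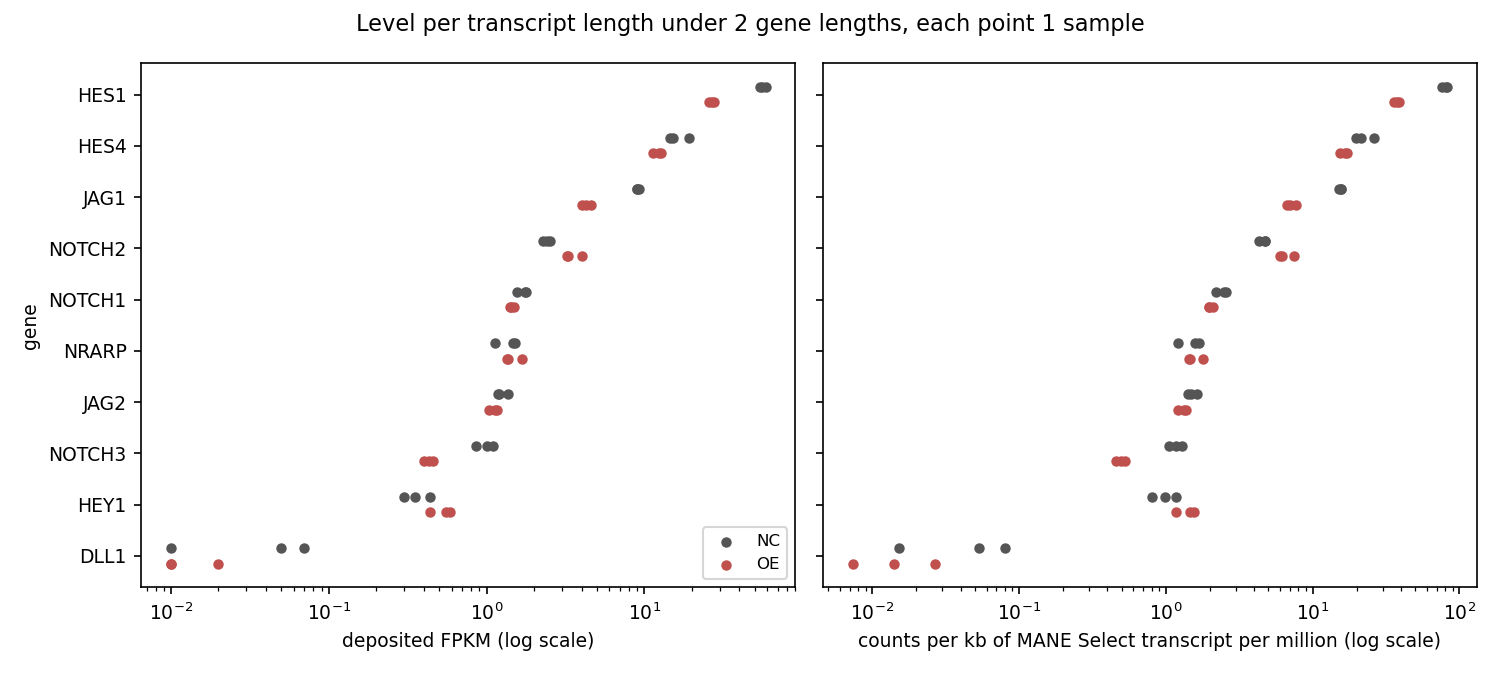
Level of the 10 genes (y axis) in each of the 3 NC samples (grey) and 3 OE samples (red) on a log scale, as deposited FPKM (left) and as counts per kilobase of the MANE Select transcript and 1000000 counts (right). HES1 is highest and DLL1 lowest on both sides, and HEY1 moves up relative to NOTCH3 on the right.

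The make-up of each role shifted within the samples, given here as a description of the FPKM already tested above. NOTCH2 made up 46.9%, 48.2% and 47.1% of the summed receptor FPKM in NC and 64.0%, 63.7% and 67.8% in OE. NOTCH3 made up 20.3%, 17.1% and 20.6% in NC and 8.91%, 8.45% and 6.78% in OE. The receptor sum hardly moved, at 5.11 ± 0.286 FPKM in NC and 5.38 ± 0.449 in OE with overlapping samples, while its parts did.

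The ratio of NOTCH2 to NOTCH3 FPKM was 2.31, 2.83 and 2.29 in the NC samples and 7.17, 7.53 and 10.0 in the OE samples. With the MANE Select lengths it was 3.69 to 4.53 across NC samples and 11.7 to 16.2 across OE samples, and the NOTCH2 share 55.7% to 56.8% and 70.8% to 74.4%. The sum of JAG1, JAG2 and DLL1 was 10.4 ± 0.180 FPKM in NC and 5.42 ± 0.340 in OE. JAG1 made up 87.5 ± 1.18% of it in NC and 79.3 ± 0.943% in OE, the largest part in both groups. This sum leaves out DLL3, at 0.933 FPKM in NC and 0.753 in OE. It also leaves out MFAP2, listed below as a non-canonical ligand, at 13.8 FPKM in NC and 8.16 in OE. The ratio of JAG1 to JAG2 was 6.56 to 7.89 across NC samples and 3.67 to 4.08 across OE samples. The summed FPKM of the targets was 74.2 ± 1.62 in NC and 40.9 ± 1.47 in OE, with HES1 the larger part in both, at 75.7 ± 3.33% and 65.5 ± 0.659%. The ratio of HES1 to HEY1 was 124 to 196 across NC samples and 45.5 to 58.7 across OE samples, and with the MANE Select lengths it was 64.9 to 102.5 and 24.0 to 30.6.

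**Figure D4:**
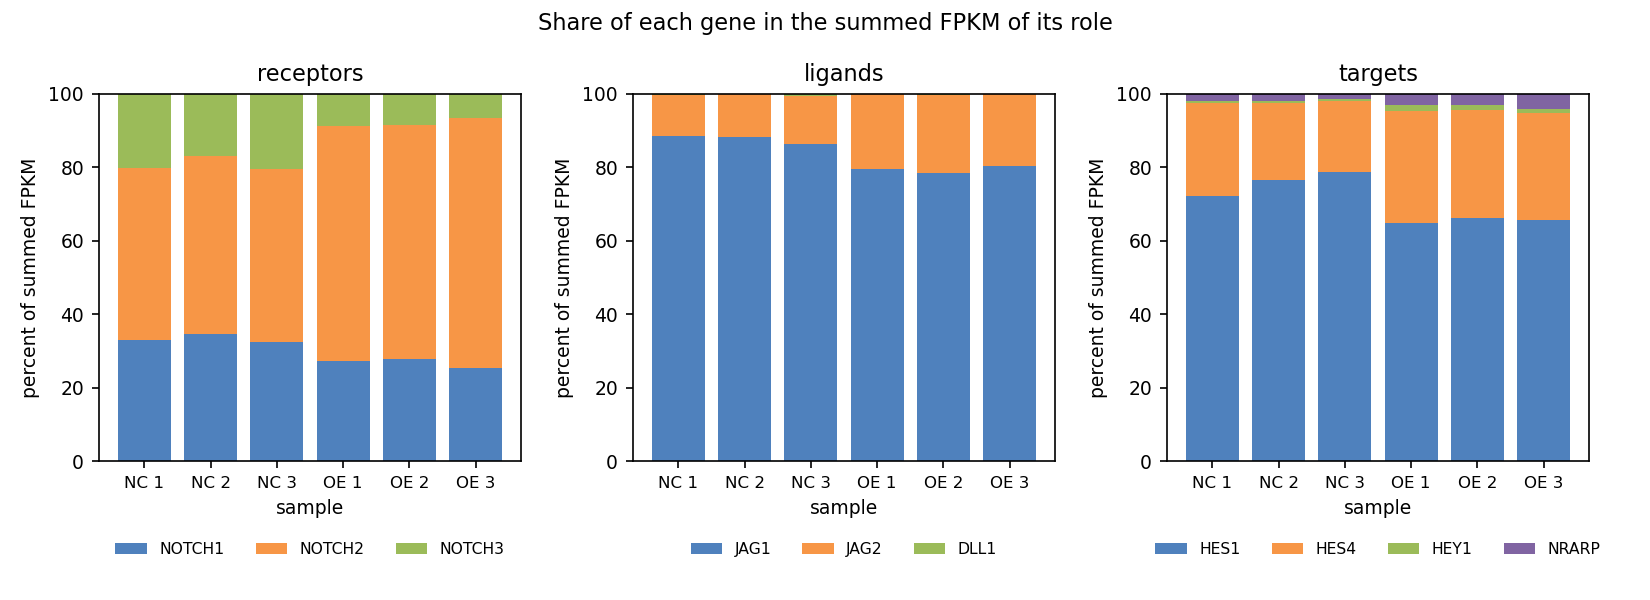
Share of each gene in the summed FPKM of the receptors, ligands and targets among the 10 genes (y axis, percent), in each of the 3 NC and 3 OE samples (x axis). The NOTCH2 share is 46.9% to 48.2% in NC and 63.7% to 67.8% in OE, JAG1 and HES1 hold the largest share of their role in every sample, and DLL1 is too small to be seen.

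Around the 10 genes, a list of 69 Notch pathway genes was described by role, with all 69 in the count table and 59 tested. Of the 59, an adjusted p under 0.05 was reached by 18 that were higher and 12 that were lower, and 29 did not pass. Beside the 3 members, MFAP5 was called lower and NEURL1 was called higher. The median log2 fold change of the list was -0.03. Without the 10 genes, 50 were tested, of which 16 were higher and 7 lower, against 24.9% and 23.7% of all genes.

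The other receptor and ligand genes tested did not pass. NOTCH4, the endothelial receptor, had 6 to 20 counts per sample (log2 fold change -0.27, edgeR adjusted p = 0.64). DLL3, a ligand that acts mainly in the same cell, had 67 to 96 (log2 fold change -0.33, edgeR adjusted p = 0.12). DLL4 was not tested, with at most 12 counts. Of the other targets, HEYL (log2 fold change 0.64, edgeR adjusted p = 0.092) and HES7 (-0.36, edgeR adjusted p = 0.43) did not pass, and HES2, HES5 and HEY2 were too low to test.

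Among the proteases, ADAM17 rose slightly (log2 fold change 0.19, edgeR adjusted p = 0.026) and ADAM10, the main Notch sheddase, did not pass (0.10, edgeR adjusted p = 0.20). Of 5 tested gamma-secretase genes, 2 rose, 1 fell and 2 did not pass, where 24.9% of all tested genes rose and 23.7% fell. NCSTN, the subunit that receives the substrate, was the one that fell (log2 fold change -0.28, edgeR adjusted p = 0.0027). The role listed as receptor glycosylation had 5 tested genes, among them the protease FURIN, which did not pass. POFUT1, which adds fucose to Notch, rose (log2 fold change 0.36, edgeR adjusted p = 6.8e-06). LFNG, the fringe enzyme that extends this fucose, fell (-0.36, edgeR adjusted p = 0.0022). Changes in these steps went in both directions and were all below 2-fold.

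In the nuclear complex 4 of 7 tested genes rose, where 24.9% of all tested genes did, and the other 3 did not pass. The number that rose was 3 to 4 when a sample was left out, and without OE sample 3 another 1 was lower. It was 3 with the replicate block, with upper quartile scaling and in both limma fits, and 0 when tested against a fold of 2. CREBBP, a histone acetyltransferase coactivator, had 3815, 3760 and 3455 counts in NC and 6466, 6999 and 6973 in OE (log2 fold change 0.80, SE 0.06, edgeR adjusted p = 3.0e-10). SNW1, a splicing factor that also binds RBPJ, rose too (log2 fold change 0.50, edgeR adjusted p = 4.3e-08). KAT2B and EP300, further acetyltransferases, made up the 4, and EP300 was close to the threshold (edgeR adjusted p = 0.037). These genes serve many other promoters as well. RBPJ itself, named here for its role after its value was seen, had 592 to 694 counts in NC and 619 to 733 in OE (log2 fold change -0.01, edgeR adjusted p = 0.90).

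Of 8 tested corepressor genes, 2 rose, 1 fell and 5 did not pass, with CIR1 (log2 fold change -0.31, edgeR adjusted p = 9.4e-05) and KDM5A (0.19, edgeR adjusted p = 0.0065) the smallest p. Both act with RBPJ when Notch is not active. Of 10 endocytic and turnover regulators, 3 rose and 2 fell. For the corepressors and these regulators, the shares of all tested genes were 24.9% higher and 23.7% lower. DTX3 (log2 fold change 0.43, edgeR adjusted p = 2.1e-05) and DTX4 (-0.53, edgeR adjusted p = 0.0012), both of the Deltex family of ubiquitin ligases, moved in opposite directions.

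NEURL1, a ubiquitin ligase that promotes ligand uptake, had 27, 20 and 29 counts in NC and 53, 70 and 73 in OE (log2 fold change 1.27, SE 0.25, edgeR adjusted p = 2.7e-04). Its mean FPKM was 0.133 in NC and 0.327 in OE. With pseudocounts of 1 and 0.1, which shrink the fold at such levels, limma gave log2 fold changes of 0.23 and 0.87. These passed the adjusted p (limma adjusted p = 0.0018 and 0.0016) but not the fold threshold. Its relatives in ligand endocytosis, NEURL1B (log2 fold change -0.48, edgeR adjusted p = 0.21) and MIB1 (-0.11, edgeR adjusted p = 0.36), did not pass. Of the 5 tested non-canonical ligands, 2 rose and 2 fell, where 24.9% of all tested genes rose and 23.7% fell. MFAP5, a microfibril protein, had 19, 16 and 17 counts in NC and 8, 8 and 0 in OE (log2 fold change -1.77, SE 0.54, edgeR adjusted p = 0.010). Its relative MFAP2 was far better counted, with 1260 to 1523 counts in NC and 811 to 946 in OE, and fell without passing the fold threshold (log2 fold change -0.78, edgeR adjusted p = 7.5e-08). DNER, a transmembrane protein with EGF repeats, rose (log2 fold change 0.62, edgeR adjusted p = 6.8e-04).

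**Figure D5:**
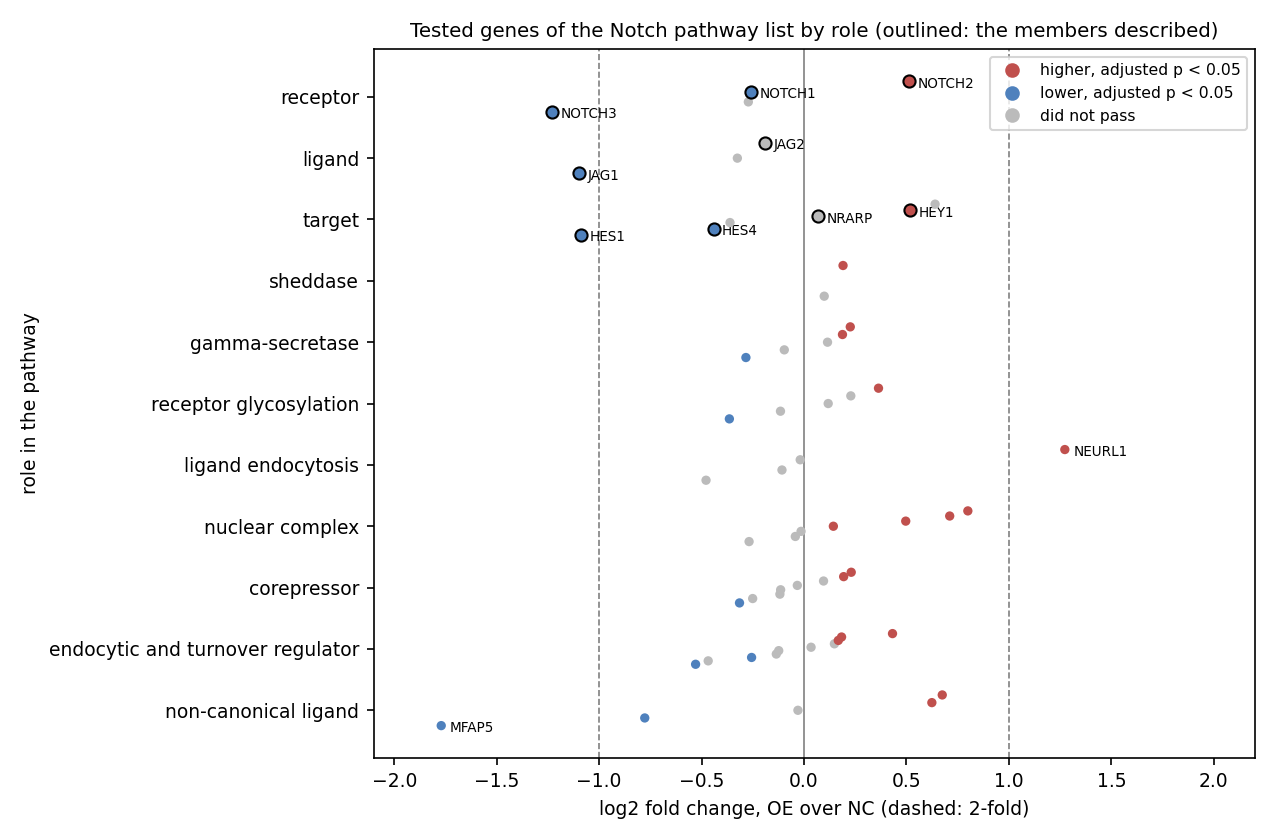
Log2 fold change of OE over NC (x axis) for the 59 tested genes of the Notch pathway list, by role (y axis), with genes higher at an adjusted p under 0.05 in red, lower in blue and not passing in grey, and the members outlined. Beyond the dashed 2-fold lines lie NOTCH3, JAG1, HES1 and MFAP5 on the left and NEURL1 on the right, and most other genes lie near 0.

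The libraries held 34635770 to 36116963 counts in NC and 36033404 to 39850802 in OE. NC sample 2 stood apart in having 26478 genes with a count, where the other 5 samples had 22094 to 22913. By the study's own figures it also had the largest shares of intronic, intergenic and antisense reads. Without NC sample 2, NOTCH3, JAG1 and HES1 were still called lower. OE sample 3 differed more from OE samples 1 and 2 (mean chi-square per gene 11.7 and 10.6) than these did from each other (6.0) or than the NC samples did (5.12 to 7.13). Without OE sample 3 the same 3 genes were called lower, and the log2 fold change of NOTCH2 was 0.42. The labelled cell type was checked against markers. Of 6 renal epithelial genes, 5 were at 1 FPKM or more in both groups, among them PAX8 (27.7 and 33.5) and EPCAM (121.7 and 104.5). Of 11 proximal tubule genes, only DPP4 was (5.30 and 4.17), and CUBN, AQP1 and HNF4A were at 0.03 FPKM or less on average, so most defining markers of the segment the line comes from were at or near 0 or had no FPKM.

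The tested fibroblast genes moved in the same direction as JAG1, NOTCH3 and HES1, and so did most tested renal epithelial and proximal tubule genes. At the adjusted p, 4 of 6 renal epithelial genes were lower and 1 higher. Of the 5 tested proximal tubule genes, 3 were lower and 0 higher, where 23.7% of all tested genes were lower. The summed FPKM of the fibroblast list was 2.94 to 3.10 in NC and 1.10 to 1.15 in OE. The 2 tested of its 7 genes, COL1A1 (log2 fold change -0.99) and LUM (-1.94), were both lower (edgeR adjusted p = 5.7e-08 and 6.4e-09). These 2 genes held most of that sum, at mean FPKM of 1.33 and 1.64 in NC and 0.68 and 0.44 in OE. The defining fibroblast genes COL1A2, DCN and PDGFRB were at or near 0 in both groups. The summed FPKM of the endothelial list was 1.24 to 1.43 in NC and 1.42 to 1.56 in OE, and that of the immune list 0.19 to 0.28 and 0.04 to 0.15, with PTPRC and CD3E at or near 0. The part of these lists in the results was not tested. In bulk samples, fewer cells that express a gene and less RNA per cell cannot be told apart.

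By likeness over the 6 samples (Pearson's r of log2 CPM, among 8629 genes with a mean CPM of 10 or more), the genes closest to NOTCH3 were AP2M1 (r = 0.9995), SDF2L1 and PDZK1IP1. Those closest to JAG1 were CORO1C (r = 0.9998), DCAF6 and CRISPLD2, and those closest to HES1 were MORC4 (r = 0.9997), GBP2 and ADI1. Likeness of this kind was common, since the 100th most alike gene still had an r of 0.991 for NOTCH3 and 0.994 for JAG1 and HES1. All 6 points share the same 2 groups, so r also carries the difference between them.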

How the data were processed

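RNA from 6 HK-2 samples was sequenced from stranded mRNA libraries. The authors trimmed the reads, aligned them to GRCh38 with HISAT2 allowing 4 mismatches, and deposited raw counts of uniquely mapped reads per gene. The authors also deposited FPKM, described as fragments per kilobase of transcript, scaled to the mapped fragments. The submitters' processing notes also list mm10, a mouse build. The counter, its strand setting and the annotation release are not given in the sources used here. No columns of the authors' own comparisons were used.

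Groups came from the genotype entries. The counts were tested with edgeR 4.0.16 (quasi-likelihood F-test, TMM factors, filterByExpr, Benjamini-Hochberg adjustment over 15878 genes) in R 4.3.3. The test was checked on simulated data in which well-counted genes changed by more than NOTCH3, JAG1 and HES1 did. That check does not bear on changes near 2-fold or on genes with low counts. DESeq2 1.42.0, limma 3.58.1 on log2(FPKM + 1) and log2(FPKM + 0.1), other scalings and filters, a replicate block and fits without each sample were alternatives. The MANE Select length was added after seeing the data. Positions came from GENCODE v44 (GRCh38) and promoters from RefSeq. The total count was 34635770 to 39850802 per sample.

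The 10 genes, the pathway list of 69 genes and the marker lists were chosen with earlier results of these data known. Beyond the 10 genes and PPM1K, the genes named were those called in each role of the list, the 2 others of each role with the smallest p, the markers, the NOTCH2NL copies and the 3 genes most alike to each called gene, and a gene outside this rule is said to be so or stands in a count of 5 or fewer. Some genes that this rule names are not reported here. Same-numbered samples of the groups did not deviate together (correlations -0.0032, -0.066 and -0.054), so the fit without a block was the main one.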

Additional observations from a re-analysis of the deposited data

How the results depend on the processing

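NOTCH3, JAG1 and HES1 kept their direction in all 16 alternatives. Of 144 values (9 genes under 16 alternatives), 128 kept their direction and their side of the adjusted p threshold, 14 no longer passed it and 2 changed sign. NOTCH3 (-0.47) and JAG1 (-0.93) are among the 128 with limma on log2(FPKM + 1), but no longer passed the fold threshold. Both changes of sign belong to NRARP, which had a log2 fold change of -0.054 without NC sample 3 and -0.033 without OE sample 3. Its range was -0.054 to 0.16 when each sample was left out. Tested against a fold of 2, the 3 members called lower, the 5 lower and 2 higher at the adjusted p, and in the list the 4 called lower, the 1 called higher, and the 12 lower and 18 higher at the adjusted p all became 0, while 118 and 68 of all genes stayed lower and higher. With limma on log2(FPKM + 1), 1 member (HES1) and 1 gene of the list were called lower and 0 of the list higher, and with log2(FPKM + 0.1) 0 of the list were called higher. A pseudocount of 1 is large beside these FPKM and shrinks the folds of low genes by its construction. Under this setting 69 of all genes were called lower and 55 higher, against 601 and 274. With log2(FPKM + 0.1), 282 were called lower and 155 higher. With DESeq2, 1 member was higher at the adjusted p, since HEY1 did not pass, and the cause was not tested. With a sample left out, members higher at the adjusted p numbered 1 to 2, and those of the list 10 to 17, with 10 without NC sample 3 and 11 without OE sample 2. The upper quartile scaling moved the median of all genes to -0.04.

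With the replicate block, NOTCH3, JAG1 and HES1 were again the 3 called lower, and 603 of all genes were called lower and 274 higher. No same-numbered pair had a correlation over 0.1.

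With 3 samples a group the exact test cannot go below 0.1, and 1 to 11 counts per sample limit DLL1. The unclear strand setting bears on the genes with a neighbour on the opposite strand. The labels disagree with each other on hairpin and overexpression.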
